A study of Mus musculus with 6 samples.

Results

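The mitochondrial carrier family Slc25 was examined in the inguinal adipose tissue (iAT) of young mice. Its members were taken as every gene of the expression table whose symbol is Slc25a followed by digits only. This rule found 47 of the 19831 listed genes and used no measured value, though earlier results of these data were known by then. The comparison was between 3 samples of wild-type mice and 3 of mice without *Npffr1* (Npffr1-KO), which encodes a receptor for the neuropeptide FF. All 6 were iAT of postnatal day 6 from animals kept under specific pathogen free conditions, and total RNA was extracted with TRIzol and sequenced. The labels give neither the sex and strain of the animals, nor whether each sample came from 1 animal, nor in which cells *Npffr1* was deleted.

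Mitochondrial carriers are proteins of the inner mitochondrial membrane, built from a motif that is repeated along the chain, and most of them exchange a metabolite of the matrix for another of the cytosol. They bring phosphate and ADP to the ATP synthase and take ATP out, carry citrate, malate and 2-oxoglutarate, amino acids and cofactors, and bring acylcarnitines to fatty acid oxidation. In fat, the exported citrate feeds fatty acid synthesis, and the uncoupling protein of thermogenic adipocytes belongs to the same family under another symbol. The carriers are made in the cytosol and enter the inner membrane through a dedicated import route.

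The table lists 1 value per gene and genotype, a read count that the authors normalized for library size, so that no spread between samples is given for these values. They are called normalized counts here and printed as the authors' values. For genes with few reads the ratio of both values lies closer to 1 than the reads do. The value of a genotype is then not the mean of its normalized reads. *Npffr1*, for example, has a value of 0.85 in Npffr1-KO, where no read was found. The whole reads of each library could be worked out from the values of 9076 genes with a mean under 250, and 18 of the members were among these. Summed over all genes the wild-type values came to 23137343 and the Npffr1-KO values to 23640005, and the size factors of the 6 libraries lay between 0.916 and 1.04. *Npffr1* itself had 1, 0 and 5 reads in the wild-type libraries, 6 altogether, against 0 in each Npffr1-KO library, where a count of 0 allows up to 3 reads, which is too few to check the genotype of any library. Adipocyte markers were high in both genotypes, with 156285 and 173188 normalized counts of *Fabp4*, a fatty acid binding protein, and 37027 and 35360 of *Adipoq*, the gene of adiponectin.

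Levels were compared between members per kilobase of the gene length in the table. The highest was *Slc25a3*, the phosphate carrier, with 5595 normalized counts per kilobase in wild-type and 6417 in Npffr1-KO. *Slc25a5* and *Slc25a4*, the ADP/ATP carriers that exchange the nucleotides of oxidative phosphorylation, followed with 4622 and 4143 per kilobase in wild-type. These 3 genes held 45.7% of the family's summed wild-type level per kilobase and 46.9% in Npffr1-KO. Next came *Slc25a1*, the citrate carrier, with 2544 per kilobase, *Slc25a39*, a glutathione carrier, with 2285, and *Slc25a10*, the dicarboxylate carrier, with 1316. At the other end *Slc25a54*, a relative of the ATP-Mg/phosphate carriers, was seen with 1 read in the whole experiment. *Slc25a31*, the ADP/ATP carrier known from the testis, had 4 reads, and *Slc25a41* had 6. The order of the levels was nearly that of the other genotype, with a Spearman correlation over the 47 members of 0.993, given as a description because the values of a genotype share their libraries.

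**Figure D1:**
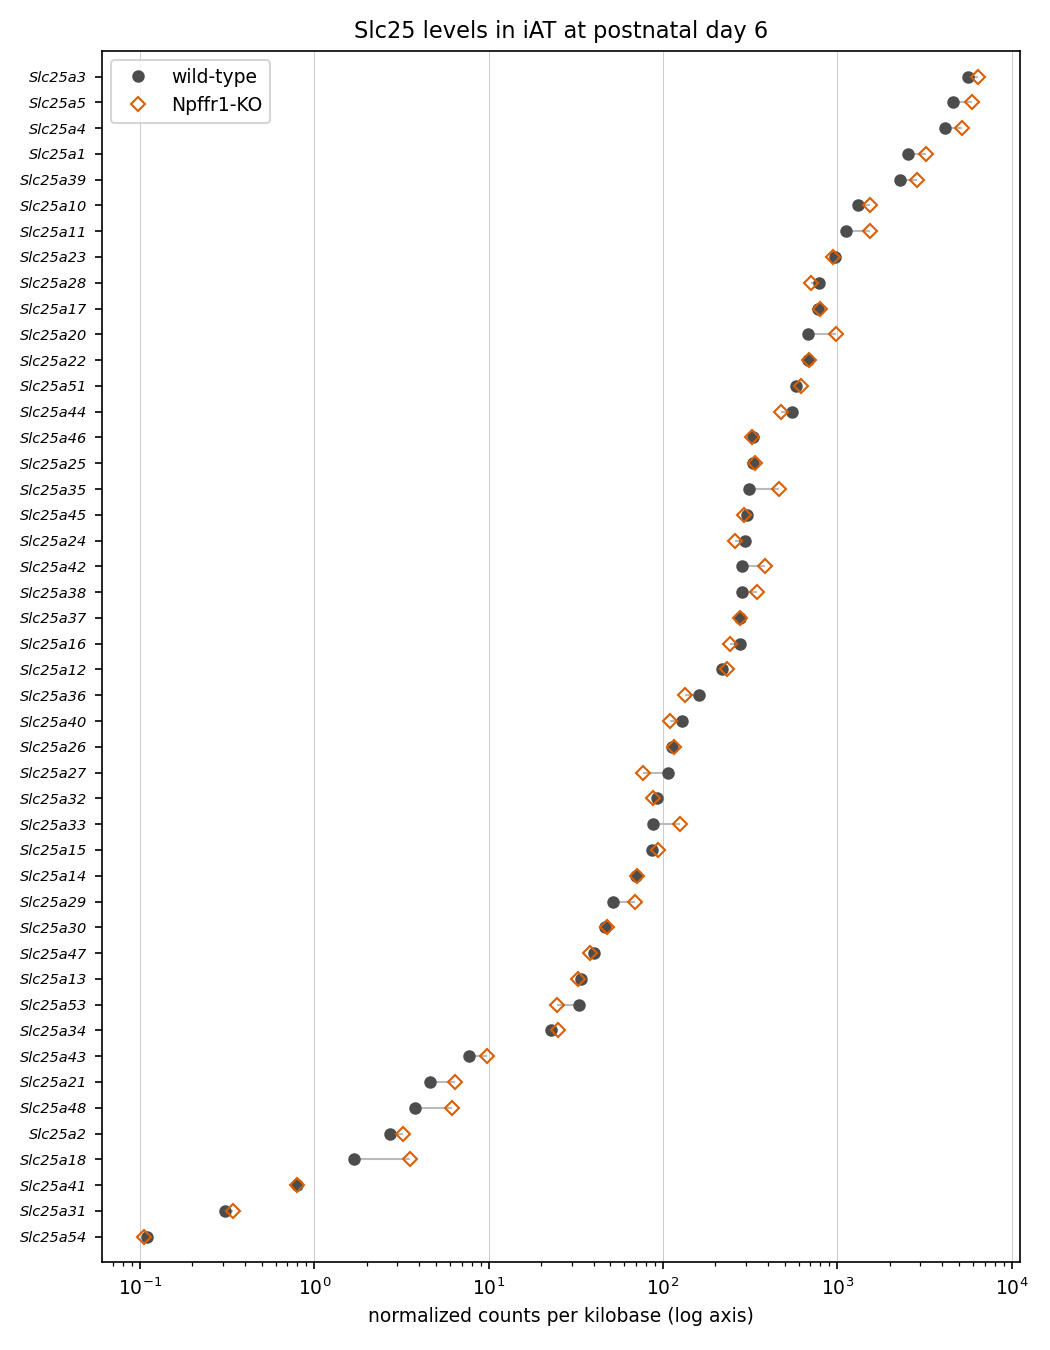
Normalized counts per kilobase (log axis) of 46 of the 47 Slc25 members, ordered by the wild-type level. Filled circles are the wild-type value and open diamonds the Npffr1-KO value, each the authors' single value per genotype with no error given. *Slc25a3*, *Slc25a5* and *Slc25a4* stand at the top, and the 7 members with a mean under 10 lie at the bottom together with *Slc25a21*.

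Between the genotypes, 12 of the 40 members whose mean of both values was 10 or more had an Npffr1-KO value at least 25% above the wild-type value (30.0%), beside 12.0% of the 15309 genes that passed the same limit. In the other direction 2 members had a wild-type value at least 25% above the Npffr1-KO value (5.0%, beside 11.6% of all genes), and the remaining 26 lay between. The ratio was above 1 for 26 of the 40 members (65.0%, beside 51.2% of all genes). The median log2 ratio of the members was 0.05, against 0.01 over all genes. No test stands behind these counts, since the values used are 1 per genotype and the authors' own p-values were not used. The members that were higher were mostly abundant ones. Of the 19 members with a mean of 1000 or more 8 were at least 25% higher (42.1%), beside 9.88% of all genes at that level. The summed value of the family was 61393 normalized counts in wild-type against 71093 in Npffr1-KO, 1.16-fold, while the sum over all genes differed by 1.02-fold. In bulk tissue, fewer cells of a type and less RNA per cell cannot be told apart.

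Among the members that were more than 25% higher, *Slc25a35*, whose substrate is less settled, had 572 normalized counts in wild-type against 847 in Npffr1-KO (1.48-fold). *Slc25a20*, the carnitine/acylcarnitine carrier of fatty acid oxidation, had 1217 and 1751 (1.44-fold). Just past the limit of 25% lay *Slc25a4* (1.26-fold), *Slc25a39* (1.26-fold) and *Slc25a1* (1.27-fold). Just short of it were *Slc25a38* (1.22-fold), *Slc25a10* (1.17-fold) and *Slc25a3* (1.147-fold).

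**Figure D2:**
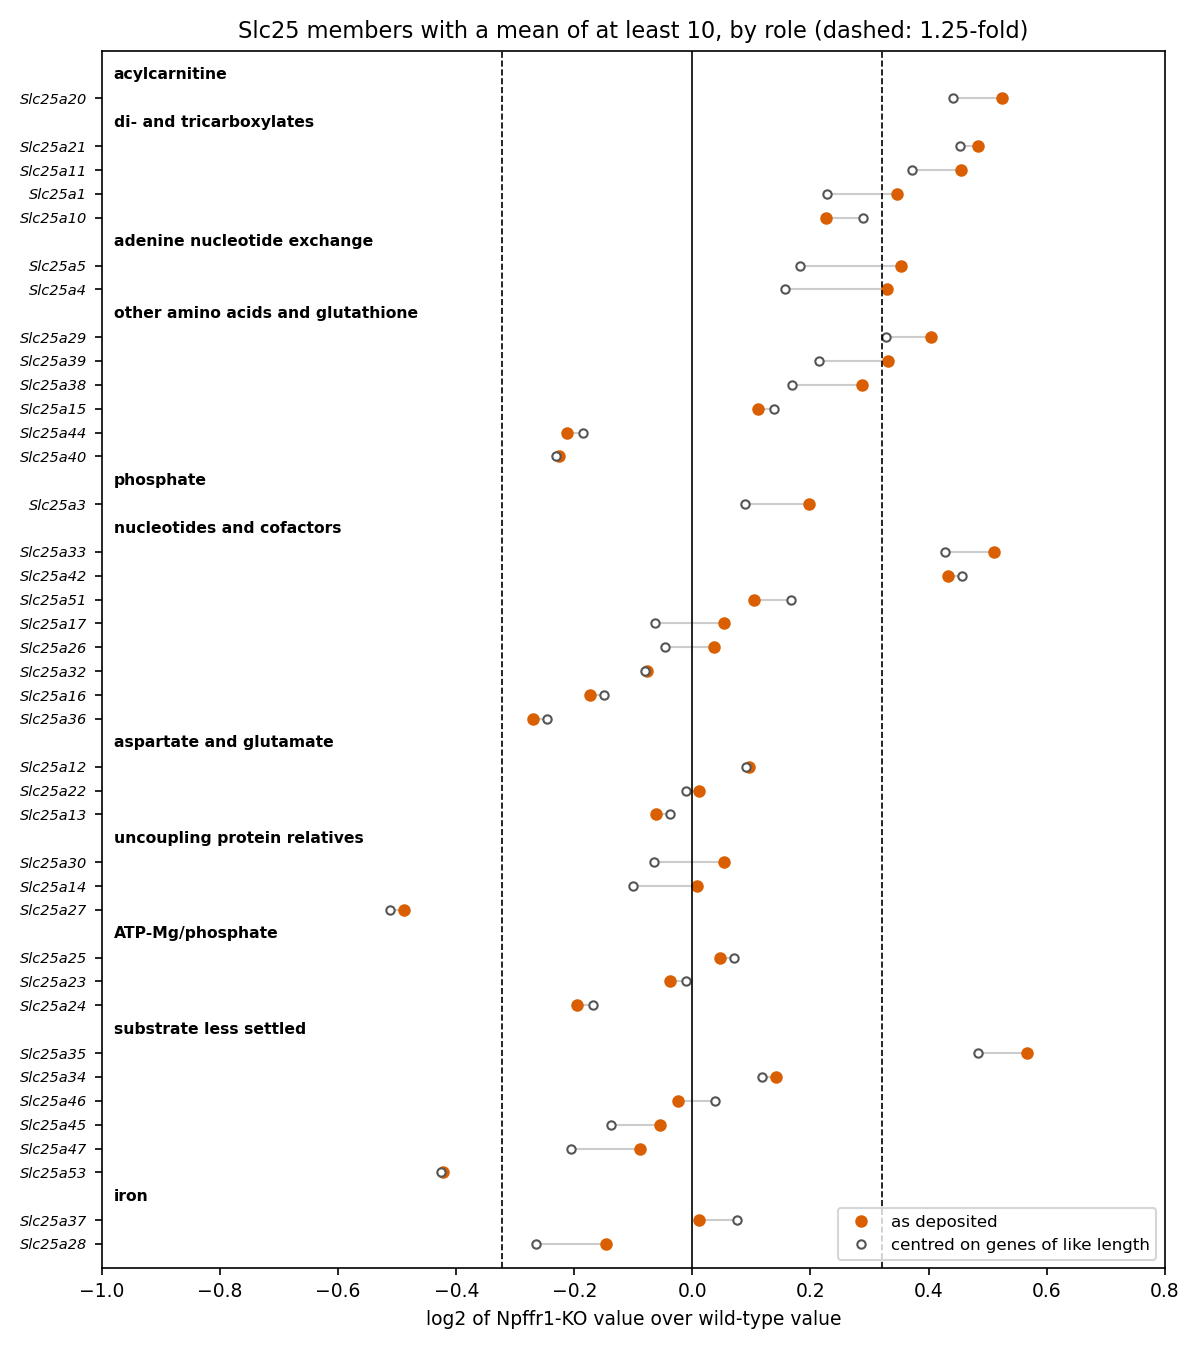
Log2 of the Npffr1-KO value over the wild-type value for 39 of the 40 members with a mean of 10 or more, grouped by transported substrate. Filled circles are the ratio of the authors' values and open circles the same ratio minus the median of genes of like length, and dashed lines mark a value 25% above that of the other genotype. The adenine nucleotide, dicarboxylate and acylcarnitine carriers lie to the right of 0, and *Slc25a27* and *Slc25a53* lie past the dashed line on the left.

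Of the carriers that serve ATP synthesis, both abundant ADP/ATP carriers were more than 25% higher (beside 12.0% of all genes). *Slc25a5* had 6088 normalized counts in wild-type against 7780.2 in Npffr1-KO (1.28-fold), and *Slc25a4*, the form known from heart and muscle, had 4732 and 5946 (1.26-fold). Both were higher by a like amount, so that the level of *Slc25a5* per kilobase was 1.12-fold that of *Slc25a4* in wild-type and 1.13-fold in Npffr1-KO. *Slc25a3*, which brings in the phosphate, had 8460.3 and 9703 (1.147-fold). The ADP/ATP carriers together held 27.9% of the family's summed level per kilobase in wild-type and 29.7% in Npffr1-KO, and *Slc25a3* held 17.8% and 17.2%.

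Because *Slc25a4* and *Slc25a5* are close paralogs, their coding sequences were compared in the GENCODE M21 annotation of mouse genome build GRCm38. Over 894 aligned bases they were 77.4% identical, and the longest stretch without a difference was 20 bases. The 30 bases that hold this stretch, coding bases 316 to 345, are shown for both genes, with the aligned bases of *Slc25a31* (coding bases 355 to 384), to show the longest run that *Slc25a4* and *Slc25a5* share and how *Slc25a31* differs there. Capitals mark bases unlike those of *Slc25a4*, 7 in *Slc25a5* and 12 in *Slc25a31*.
Slc25a4: cataagcagttctggcgctactttgctggt
Slc25a5: AGGaCCcagttctggcgctactttgcAggG
Slc25a31: GaAaaAcagttctggAgAtGGtttCTAgCA
The stretch of *Slc25a4* is at chr8:46209275-46209304 on the minus strand, in exon 2 of 4, and that of *Slc25a5* at chrX:36797047-36797076 on the plus strand, also in exon 2 of 4. In *Slc25a31*, on chromosome 3, the bases cross an exon junction. No word of 31 bases was shared by *Slc25a4* with the transcripts of any other gene. By contrast 49.4% of the words of *Slc25a5* also occurred in transcripts of 13 other annotated genes, among them *Slc25a5-ps*, a copy that is 92.4% identical over 893 aligned bases with a shared run of 97. With the read length and the handling of reads with several matches not given in the sources used here, the value of *Slc25a5* is uncertain to the extent that such reads were split. Of the other members, *Slc25a20* shared 8.83% of its words with other genes, *Slc25a36* 7.78%, *Slc25a37* 7.72% and *Slc25a43* 6.64%, and the rest shared less.

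All 4 carriers of di- and tricarboxylates had a higher value in Npffr1-KO (beside 51.2% of all genes), with a median log2 ratio of 0.40. In 3 of them it was more than 25% higher (beside 12.0% of all genes). *Slc25a1*, which exports the citrate used for fatty acid synthesis, had 4313 normalized counts in wild-type against 5481 in Npffr1-KO (1.27-fold). *Slc25a11*, the 2-oxoglutarate/malate carrier of the malate-aspartate shuttle, had 2111 and 2893 (1.37-fold). *Slc25a21*, the oxodicarboxylate carrier, was far lower, at 11.6 and 16.2 (1.40-fold). *Slc25a10*, which is known to be abundant in white fat, had 5264 and 6155 (1.17-fold) and did not reach the limit. Of the family's level per kilobase the group held 15.9% in wild-type against 16.9% in Npffr1-KO.

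The aspartate and glutamate carriers, of which *Slc25a12* and *Slc25a13* complete the malate-aspartate shuttle with *Slc25a11*, showed no such ratio. Of the 3 that passed the limit of 10, 0 differed by 25% (beside 12.0% of all genes higher and 11.6% lower). *Slc25a22*, a glutamate carrier, had 1754 and 1768 normalized counts (1.01-fold), and *Slc25a12*, known as aralar, had 639 and 682 (1.07-fold). Aralar was the main form of its pair, with a level per kilobase 6.43-fold that of *Slc25a13*, known as citrin, in wild-type and 7.17-fold in Npffr1-KO.

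Among the 9 carriers of nucleotides and cofactors 3 were more than 25% higher (beside 12.0% of all genes), with a median log2 ratio of 0.05. They included *Slc25a33*, a carrier of pyrimidine nucleotides, with 165 and 235 normalized counts (1.42-fold), and *Slc25a42*, a carrier of coenzyme A, with 909 and 1227 (1.35-fold). Their paired relatives had ratios on the other side of 1. *Slc25a36*, the other pyrimidine nucleotide carrier, had 491 and 408 normalized counts (0.83-fold), and *Slc25a16*, which is linked to coenzyme A as well, had 864 and 766 (0.89-fold). Per kilobase, *Slc25a36* was 1.83-fold above *Slc25a33* in wild-type and 1.07-fold above it in Npffr1-KO. *Slc25a42* was 1.04-fold above *Slc25a16* in wild-type and 1.58-fold in Npffr1-KO. *Slc25a51*, the NAD carrier (2567 and 2759 normalized counts), *Slc25a17* of peroxisomes (1287 and 1335), *Slc25a26*, the carrier of S-adenosylmethionine, and *Slc25a32*, linked to folate and FAD (273 and 259), lay between 0.95-fold and 1.07-fold.

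Of the carriers of other amino acids and of glutathione 6 passed the limit of 10. More than 25% higher were 2 of these (beside 12.0% of all genes). *Slc25a39*, a carrier of glutathione, had 3835 and 4826 normalized counts (1.26-fold), and its paralog *Slc25a40* had 361 and 308 (0.85-fold). Their levels per kilobase stood 17.7-fold apart in wild-type and 26.1-fold apart in Npffr1-KO. *Slc25a29*, a carrier of basic amino acids, had 102 and 135 normalized counts (1.32-fold). *Slc25a38*, the glycine carrier needed for heme synthesis, had 454 and 553 (1.22-fold). *Slc25a44*, the carrier of branched-chain amino acids studied in brown fat, had 1903 and 1642 (0.86-fold), and *Slc25a15*, an ornithine carrier, had 301 and 325 (1.08-fold), 31.8-fold above its paralog *Slc25a2* per kilobase in wild-type.

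The ATP-Mg/phosphate carriers, which calcium regulates, did not differ by 25% in any of the 3 that passed the limit. Among all genes 12.0% were at least 25% higher and 11.6% lower by as much. *Slc25a23* had 3273 and 3187 normalized counts (0.97-fold), *Slc25a25* had 1059 and 1094 (1.03-fold) and *Slc25a24* had 1007 and 879 (0.87-fold). *Slc25a23* was the highest of these per kilobase, 3.26-fold above *Slc25a24* and 2.96-fold above *Slc25a25* in wild-type. Their share of the family's level per kilobase was 5.07% in wild-type against 4.13% in Npffr1-KO. The iron carriers *Slc25a28*, mitoferrin-2, with 1225 and 1107 normalized counts (0.90-fold), and *Slc25a37*, the mitoferrin-1 of erythroid cells, with 1147 and 1156 (1.01-fold), also lay within the limit. *Slc25a28* exceeded *Slc25a37* per kilobase by 2.83-fold in wild-type and 2.54-fold in Npffr1-KO.

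The relatives of the uncoupling proteins included the lowest ratio of the 40. *Slc25a27*, known as UCP4 and best known from the brain, had 289 normalized counts in wild-type against 206 in Npffr1-KO, 1.40-fold lower, while *Slc25a14* (109 and 109) and *Slc25a30* (78.9 and 81.8) differed little. The second member past the limit on this side was *Slc25a53*, whose substrate is less settled, with 96.5 and 72.0 normalized counts (1.34-fold lower). Of the others with a less settled substrate, *Slc25a46*, a protein of the outer membrane, had 1437 and 1412 normalized counts and *Slc25a45* had 557 and 536. *Slc25a35* exceeded its paralog *Slc25a34* by 13.8-fold per kilobase in wild-type and 18.5-fold in Npffr1-KO.

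The ratio of the genotypes varied with gene length over the whole table, with a Spearman correlation of -0.38 over the 15309 genes and -0.33 over the 40 members, given as a description. The median length was 2544.5 bases for these members and 2785 bases for all genes. When the median log2 ratio of genes of like length (20 classes of 765 or 766 genes) was subtracted, 8 of the 40 members remained at least 25% higher, beside 8.20% of all genes treated alike. They included *Slc25a35*, *Slc25a42*, *Slc25a21*, *Slc25a20*, *Slc25a33*, *Slc25a11* and *Slc25a29*, with centred log2 ratios from 0.33 to 0.48. The short and abundant genes *Slc25a5* (0.18), *Slc25a4* (0.16), *Slc25a1* (0.23) and *Slc25a39* (0.21) were no longer past the limit. *Slc25a27* (-0.51) and *Slc25a53* (-0.43) remained past it on the lower side, beside 11.6% of all genes. What sets the trend over length was not tested.

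**Figure D3:**
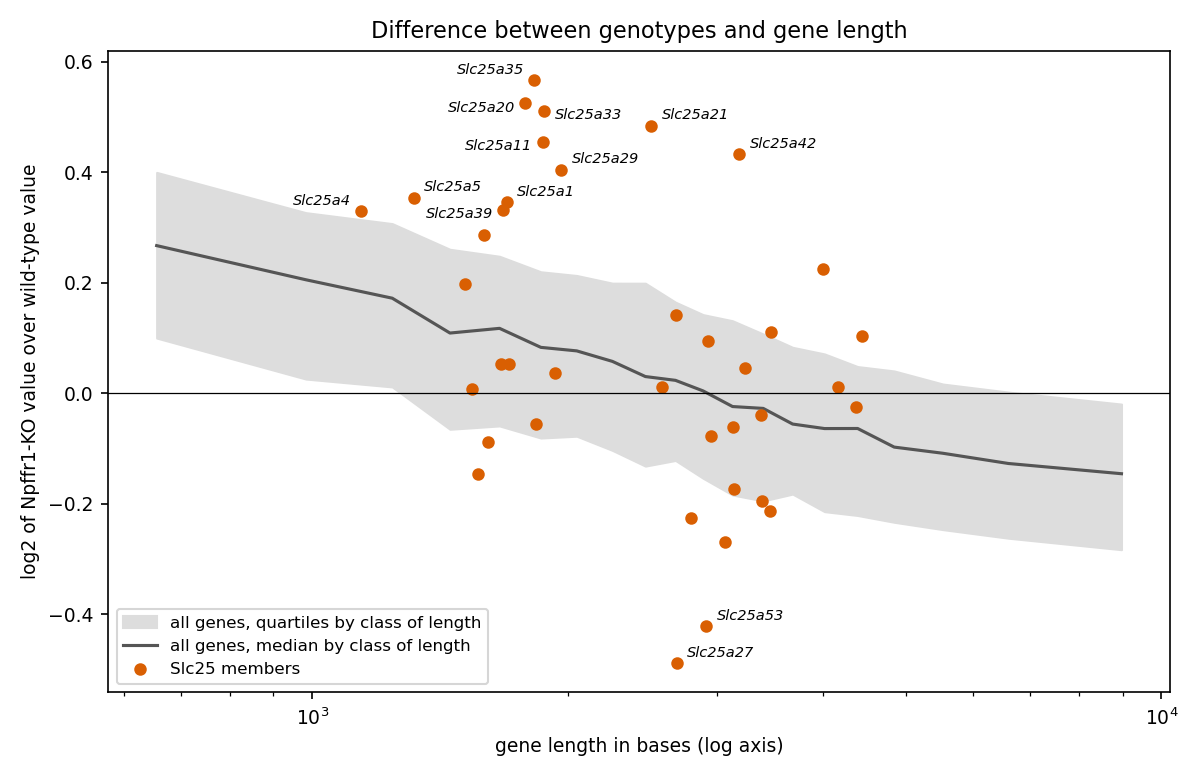
Log2 of the Npffr1-KO value over the wild-type value against gene length in bases (log axis) for 39 of the 40 members with a mean of 10 or more. The line is the median of all genes in 20 classes of length and the band runs from the lower to the upper quartile. *Slc25a4* and *Slc25a5* lie near the upper edge of the band, whereas *Slc25a35* and *Slc25a42* lie well above it.

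Reads per library were found for all 18 members with a mean under 250, of which 11 reached a mean of 10. The libraries are called a, b and c within a genotype and cannot be tied to the sample numbers. Values are given in that order, as reads divided by the size factor. *Slc25a33* had 182, 147 and 161 normalized reads in wild-type and 248.6, 193 and 267 in Npffr1-KO. All 3 Npffr1-KO libraries lay above all wild-type libraries, with means of 163 ± 17.5 and 236 ± 38.8 (SD, n = 3 each). *Slc25a27* had 267, 339.7 and 265 normalized reads in wild-type and 165, 228 and 219 in Npffr1-KO. Here all 3 Npffr1-KO libraries lay below, with means of 290.4 ± 42.7 and 204 ± 34.3. *Slc25a29* had 106, 106 and 91.3 in wild-type and 155, 141 and 111 in Npffr1-KO. Its groups did not overlap either, though library c of Npffr1-KO came close to wild-type, and the means were 101 ± 8.48 and 136 ± 22.4. *Slc25a21* rested on 33 and 50 reads in all, with 8.69, 11.7 and 11.9 normalized reads in wild-type and 16.4, 17.2 and 17.5 in Npffr1-KO, and its groups did not overlap.

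Thus 3 of the 11 members had all Npffr1-KO libraries above the wild-type libraries and 1 had them below, beside 7.65% and 10.9% of the 4602 genes with reads and a mean of 10 or more, 18.5% for either direction. For each of the 4 the exact permutation test (two-sided) gave p = 0.1, the smallest that 3 against 3 samples allow. A limma fit over the 4602 genes called 0 members and 0 genes (0.0%) at an adjusted p under 0.05, while 635 genes (13.8%) had an unadjusted p under 0.05, with *Slc25a27* and *Slc25a33* among them. In this fit the log2 difference of *Slc25a27* was -0.51 with a standard error of 0.17 (adjusted p = 0.20), and its 95% interval ran from -0.89 to -0.14. For *Slc25a33* it was 0.53 with a standard error of 0.18 (adjusted p = 0.21) and an interval from 0.14 to 0.91. *Slc25a29* stood at 0.42 ± 0.21 (SE, limma, adjusted p = 0.41) and *Slc25a21* at 0.65 ± 0.45 (SE, limma, adjusted p = 0.57). The difference between the genotypes therefore did not pass the test for any of the 11 members.

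**Figure D4:**
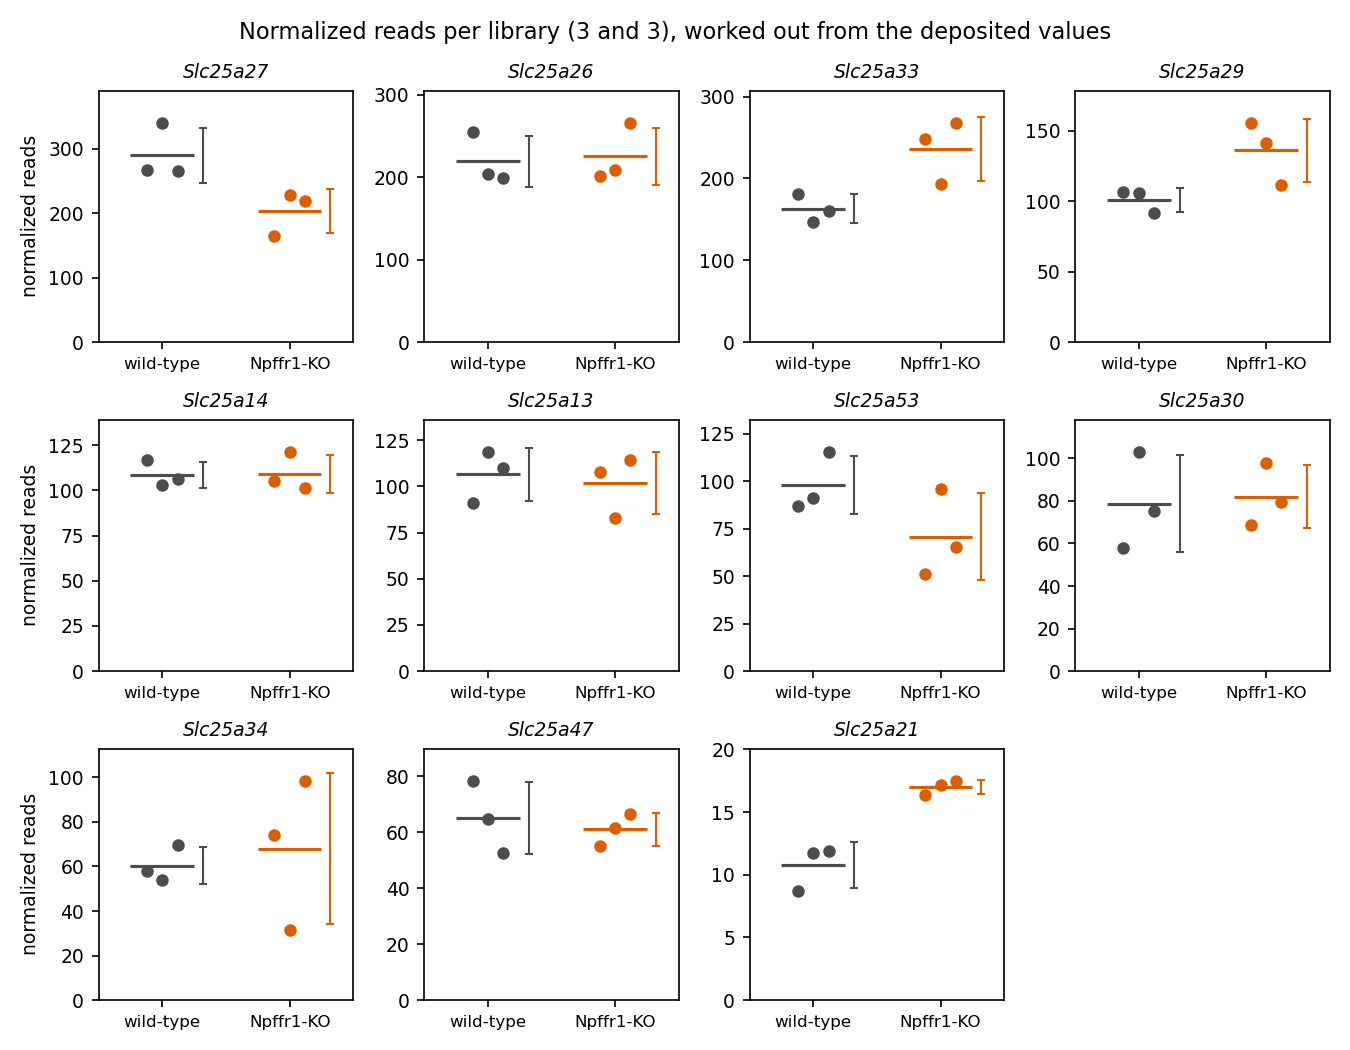
Normalized reads per library of the 11 members with a mean of at least 10 whose reads were worked out, in panels with an axis from 0. Points are the 3 libraries of a genotype in the order a, b, c, the long bar is their mean and the capped bar the SD. The groups are apart for *Slc25a27*, *Slc25a33*, *Slc25a29* and *Slc25a21* and overlap for the others.

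The groups of the other 7 overlapped. *Slc25a53* had 86.9, 91.0 and 115 normalized reads in wild-type and 51.1, 95.9 and 65.5 in Npffr1-KO, where library b lay among the wild-type values, and its log2 difference was -0.50 ± 0.27 (SE, limma, adjusted p = 0.44). This difference was -0.29 without library a of Npffr1-KO and -0.74 without library b. *Slc25a34*, a paralog of *Slc25a35*, had 57.9, 53.8 and 69.5 in wild-type and 74.2, 31.3 and 98.2 in Npffr1-KO. Library b of Npffr1-KO was thus the lowest of the 6 and library c the highest, the 95% interval of the log2 difference ran from -0.75 to 0.80, and without library b the log2 difference was 0.50 rather than 0.03. *Slc25a26* had 254.96, 204 and 198 in wild-type and 201, 209 and 265 in Npffr1-KO, with a 95% interval of the log2 difference from -0.33 to 0.41. *Slc25a14* (from 103 to 117 in wild-type and from 101 to 121 in Npffr1-KO) had an interval from -0.43 to 0.44. For *Slc25a13* (from 90.8 to 118 and from 82.8 to 115) it ran from -0.55 to 0.41. *Slc25a30* ranged from 57.9 to 103 and from 68.4 to 97.9 (interval from -0.49 to 0.65), and *Slc25a47*, a carrier known from liver, from 52.6 to 78.2 and from 54.9 to 66.6 (interval from -0.62 to 0.46).

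The 7 members with a mean under 10 entered neither the counts nor the limma fit described above, which hold genes at or over that limit. *Slc25a18*, the second glutamate carrier, had 1, 1 and 0 reads in wild-type and 7, 4 and 8 in Npffr1-KO. Its 2 and 19 reads give a ratio of 9.89 after scaling by library size, with an exact 95% interval from 2.38 to 87.5 that covers counting error only, whereas the ratio of the authors' values was 2.11. *Slc25a48*, linked to choline, had 7, 0 and 3 reads in wild-type and 25, 1 and 9 in Npffr1-KO, so that 1 library held most of its reads. *Slc25a43*, whose substrate is less settled, had 5, 4 and 15 reads in wild-type and 9, 12 and 13 in Npffr1-KO. *Slc25a2* had 10 and 14 reads per genotype, *Slc25a41* 3 and 3, *Slc25a31* 1 and 3, and *Slc25a54* 1 and 0. All Npffr1-KO libraries of *Slc25a18* lay above its wild-type libraries (exact permutation test, p = 0.1, the smallest possible), while the groups of the other members under 10 overlapped. The share of all genes with a mean under 10 whose groups were apart was not worked out. Neither was how large a difference such counts could show.

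Family members listed under other symbols were also higher. *Ucp1*, the uncoupling protein of brown and beige adipocytes, had 438 normalized counts in wild-type against 1287 in Npffr1-KO (2.94-fold). *Ucp2*, a relative that is widespread in immune cells, had 10020 and 12425 (1.24-fold), and per kilobase its wild-type level of 6330 normalized counts stood above every Slc25 member. *Ucp3*, known from muscle, had 670.3 and 781 (1.17-fold). *Mtch2* and *Mtch1*, relatives in the outer membrane, had 3178 and 4044 (1.27-fold) and 6978 and 7627 (1.09-fold). All 5 had a ratio above 1 (beside 51.2% of all genes), and 2 were more than 25% higher (beside 12.0%). Their median log2 ratio was 0.31. After centring on genes of like length the median was 0.19, and *Ucp1* (1.44) and *Mtch2* (0.32) were still past the limit (beside 8.20% of all genes).

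The machinery that brings carriers into the inner membrane was described from 15 listed genes. All 15 passed the limit of 10, and 14 had a ratio above 1 (beside 51.2% of all genes). More than 25% higher were 6 (beside 12.0%), and 0 were lower by as much (beside 11.6%), with a median log2 ratio of 0.29. After centring on genes of like length this median was 0.11 and 0 of the 15 were past the limit. Of all genes treated alike 8.20% were past it on the higher side and 11.6% on the lower. *Tomm40*, the pore of the outer membrane, had 1418 and 1855 normalized counts (1.31-fold), *Timm13*, a chaperone of the space between the membranes, had 906 and 1258 (1.39-fold), and *Timm22*, the insertion channel of the inner membrane, had 487 and 521 (1.07-fold). *Agk*, an acylglycerol kinase that is also a part of the insertion complex, had 629 and 565 (0.90-fold). Of 15 other mitochondrial transport genes 1 was more than 25% higher (beside 12.0% of all genes) and 0 lower by as much (beside 11.6%). Their median log2 ratio was 0.15. Centred on like length the median was 0.06 and 0 were past the limit, beside the same centred shares of all genes. The gene that was higher before centring was *Mpc1*, a subunit of the pyruvate carrier, with 4077 and 5188 normalized counts (1.27-fold), and *Vdac1*, the porin of the outer membrane, had 4143 and 4707 (1.14-fold).

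Markers of cell types also differed between the genotypes, and their part in the members' ratios was not tested. The counts below stand beside 12.0% of all genes at least 25% higher and 11.6% lower by as much. Of 9 markers of thermogenic adipocytes 8 passed the limit of 10 and 7 were more than 25% higher, and the list summed to 1892 normalized counts in wild-type against 6151 in Npffr1-KO. *Elovl3* of that list had reads in library a of Npffr1-KO only. Skeletal muscle markers summed to 1504 and 2156, with 10 of the 12 that passed more than 25% higher and *Myh4* near 0 in both genotypes. *Casq1*, a calcium-binding protein of muscle, had 132 normalized reads in library a of Npffr1-KO and from 42.6 to 60.6 in the other 5 libraries. *Atp2a1*, the calcium pump of fast muscle, had 10.6, 143 and 20.8 normalized reads in wild-type and 81.9, 71.7 and 112 in Npffr1-KO, so that library b of wild-type was the highest of the 6. The 7 adipocyte markers summed to 254411 and 279141, with 2 more than 25% higher, and the 9 erythroid markers to 171896 and 194726, with 2 higher. Lymphocyte markers summed to 15662 and 21417, with 6 of 9 higher, and macrophage markers to 8860 and 8886, with 1 of 5 higher and 1 lower.

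The promoters of the members were searched for the sites of a pair of regulators known to act on nuclear genes of mitochondrial proteins, nuclear respiratory factor 1 (NRF1) and the estrogen-related receptors (ERR). RefSeq windows of build GRCm38.p6, from 250 bases before to 50 bases after a start site, were found for 36 of the 47 members, 46 windows in all. The motif GCGCANGCGC, read on both strands, occurred in 2 of them (4.35%), beside 4.60% of all 32851 windows. Among genes with a mean of 10 or more it occurred in 1 of 41 windows of members (2.44%), beside 8.62% of all such windows. TNAAGGTCA, the ERR motif, occurred in none of the 46 and in 1.28% of all windows. Both matches to the NRF1 motif are given in capitals with the 10 bases on either side, because one belongs to the highest member and the other to one of the lowest.
Slc25a3: ctttggatctGCGCCTGCGCagtaggaatc
Slc25a31: gccgttgggcGCGCCTGCGCagcttttccg
The first is at chr10:91124162-91124191 on the minus strand and its motif starts at position -214 from the start site of *Slc25a3*. The second is at chr3:40708816-40708845 on the plus strand, with a motif that starts at position -45 from that of *Slc25a31*. The motif matches in both on the strand opposite to the one shown. *Slc25a3* was the most abundant member and *Slc25a31* had 4 reads in all, so that the match went with both ends of the range of levels.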

How the data were processed

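RNA sequencing of 6 iAT samples (3 per genotype, groups from the labels) was analysed. The authors' deposited table holds a signal, read counts normalized for library size with DESeq2, as 1 value per genotype. For genes with few reads this value differed from the mean of the normalized reads. The table also holds gene length and the authors' own fold changes and p-values, and these fold changes and p-values were not used. The labels also name Bowtie2 and RSEM. A further deposited table, which repeats 90 genes of the first, was left out, and so were 0 columns of single samples. Tool versions, genome build and annotation were not given in the sources used here.

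The values of single-read genes are 6 in number and give each library's size factor and genotype. Whole reads were then sought for genes with a mean under 250. With both values under 100, exactly 1 combination matched for 7270 of 7458 genes (97.5%). For the next class (1806 of 2013 found), which includes *Slc25a27*, *Slc25a26*, *Slc25a33*, *Slc25a29*, *Slc25a14* and *Slc25a13*, combinations near the ratio of the values were kept. Where several were left, the one with the least spread over the 6 libraries was taken. It had to stand clear of the next by a chi-square gap of 20. The spread, the separation of groups and the limma results of these genes rest on that choice. In simulated data of this class 4 of 433 found genes were wrong. Reads were tested with limma 3.58.1 (R 4.3.3) on log2(normalized reads + 0.5) with a trend, with Benjamini-Hochberg adjustment over 4602 genes. In data simulated for this comparison on 4602 genes, 37% of genes changed by 1 on the log2 scale were called. Of those changed by 2, 98% were called, and 10 unchanged genes were called as well. The log2 differences of the tested members were all smaller than 1, and how often changes of that size are called was not simulated. Nothing states that the samples were separate animals, so p-values measure the spread between these samples, which may be technical.

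Named are the highest members of each role, members whose values are 25% apart, members with reads and a mean of at least 10, paralog pairs, and all others by value, except 1 member that is counted with the rest and not reported here by itself. Members, roles and lists were chosen with earlier results of these data known. Alternatives covered the fold limit, centring, filters, pseudocounts and left-out libraries. The floor of *Npffr1* and the interval of *Slc25a18* cover counting error only, while intervals from limma rest on the spread between libraries.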

Additional observations from a re-analysis of the deposited data

How the results depend on the processing

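The number of members at least 25% higher was 12 and stayed between 8 and 15 under other filters, pseudocounts, centrings and a limit of 15%, whereas at 50% it was 1. The number lower was 2, and it was 5 at 15%, 0 at 50% and 1 among members with a mean of at least 100. Shares of all genes were not worked out for the other limits, filters and pseudocounts, nor for centring on the median gene. The counts under those settings therefore do not show whether members differed from genes at large. The median log2 ratio of 0.05 was 0.045 when centred on the median gene, 0.073 when centred on genes of like length and 0.095 without a filter on low values. *Slc25a3* was the highest member in each case and held 17.8% of the family's level, 17.2% with the Npffr1-KO value and 13.8% when values were not divided by gene length. The limma fit called 0 members with a pseudocount of 1 (1 gene called), with a mean of at least 5 (1 gene of 5438), and, chosen after the data were seen, with genes of a mean under 100 only (0 of 2942). Leaving out each library in turn gave from 1 to 9 genes, the 9 without library b of Npffr1-KO, and 0 members each time, with log2 differences from -0.60 to -0.37 for *Slc25a27* and from 0.43 to 0.66 for *Slc25a33*. No paired analysis was possible because the deposited columns carry no replicate numbers and the libraries found could not be tied to them. For the 29 members with a mean of 250 or more the spread between samples is unknown.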
